A study of Mus musculus with 8 samples.

Results

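Respiratory complex I genes were examined by microarray in the whole uterus of 8 wildtype females of the inbred strain C57BL/6J, at day 4.5 of pseudopregnancy. All probe sets were taken whose symbol in the array annotation begins with Nduf, which gave 46 genes on 46 probe sets of 22206 on the array, with 1 probe set for each gene. By prefix, 38 of them (Ndufa, Ndufb, Ndufc, Ndufs and Ndufv) are counted here as subunits and 8 (Ndufaf) as assembly factors. The sham group comprised 4 females that breathed room air. The ecig group comprised 4 females that breathed whole-body aerosol from an electronic cigarette 3 hours daily with 2 puffs each minute, with the heating element at 245 °C and a liquid of propylene glycol and vegetable glycerin at 55 to 45 parts with 24 mg/mL nicotine and no flavouring. Priming lasted 4 weeks, with exposure on 5 days of each, after which the females were paired with a vasectomised male and exposed daily until the morning of collection. After such a mating the ovarian hormones prepare the uterus for implantation although no embryo is present. Each array came from 1 mouse, so the spread between arrays holds the spread between animals, and their age is not stated in the labels.

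Complex I, or NADH:ubiquinone oxidoreductase, is the entry point of electrons from NADH into the respiratory chain of the inner mitochondrial membrane. Its peripheral arm oxidises NADH at the tip, the N module, and passes electrons along iron-sulphur clusters to ubiquinone at the base, the Q module. Its membrane arm pumps protons, and the assembly factors build and modify the parts without staying in the finished enzyme. A set of membrane arm subunits is encoded in mitochondrial DNA and was not analysed here, nor were 1 listed nuclear gene of the Q module and 2 of the distal membrane arm. Values below are log2 expression, so a difference of 1 is a 2-fold change, and levels are compared between mice for the same gene, never between genes.

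Before any difference between groups, 2 arrays have to be named. Ecig mice 4 and 2 lay at -40.6 and -26.1 on the first principal component of all probe sets, which held 38.6% of the variance, and the other 6 mice lay between -1.85 and 18.8. The counts and medians of the Nduf gene lists, and the genes of unadjusted p under 0.05, are therefore also given without these 2 mice. The 6 uterine markers (Esr1, Pgr, Hoxa10, Hoxa11, Msx1 and Hand2) were all measured, with a list mean of 9.36 to 9.54 in sham and 9.44 to 9.55 in ecig mice.

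Most Nduf genes had lower means in the ecig group, by small amounts, and the shift was carried by ecig mice 2 and 4. Of 46 genes, 38 had a lower mean in ecig mice and 8 a higher mean, against 49.5% of all probe sets with a lower mean. The median difference, ecig minus sham, was -0.150 over the Nduf genes and 0.001 over all probe sets. Differences ran from -0.55 for Ndufa1 to 0.06 for Ndufs5. With limma and Benjamini-Hochberg adjustment over all probe sets, 0 Nduf genes passed an adjusted p of 0.05, as did 0.0% of the array, so none of them can be called changed. At an unadjusted p under 0.05, limma placed 5 Nduf genes as lower (Ndufa1, Ndufs6, Ndufb3, Ndufaf5 and Ndufaf4), where 2.5% of the array had such a p with a lower mean. As higher it placed 0 Nduf genes, against 2.91% of the array, and 5.42% of the array had such a p in either direction. Without ecig mice 2 and 4, 15 Nduf genes had lower and 31 higher means, and the median difference was 0.051. At an unadjusted p under 0.05 in limma, 0 Nduf genes were then lower and 1 (Ndufa10) higher, against 1.96% and 2.02% of the array, a share near that of the array.

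**Figure D1:**
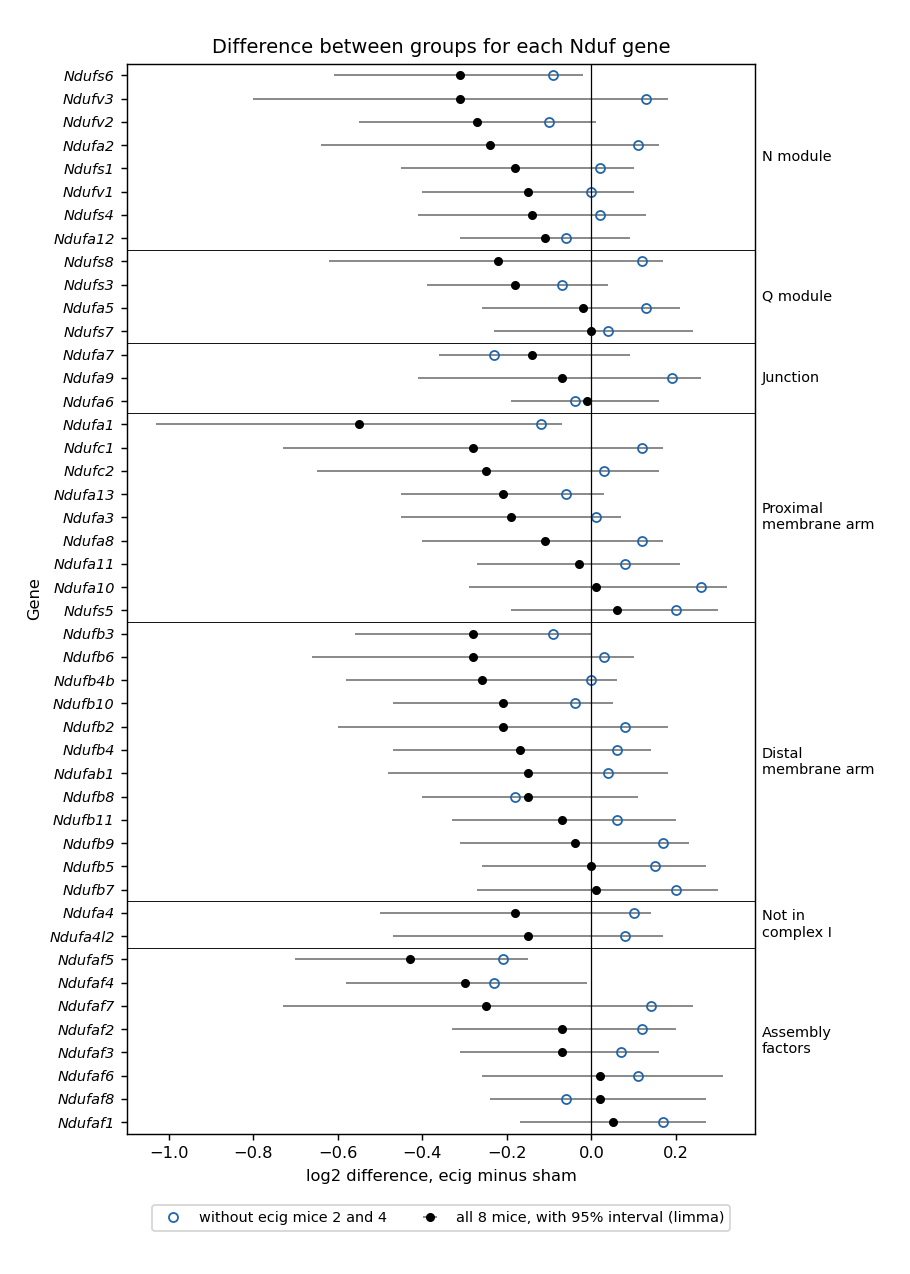
Each row is 1 Nduf gene, ordered by its place in the complex, and the horizontal axis is the log2 difference, ecig minus sham. Filled points with 95% limma intervals are from all 8 mice, 38 of 46 left of 0, and open points are without ecig mice 2 and 4, 15 of 46 left of 0.

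The subunits as a set were low in the same 2 mice. The mean deviation of the 38 subunit genes from their sham means was 0.012, -0.0, 0.064 and -0.076 in sham mice 1 to 4. It was 0.020 in ecig mouse 1, -0.296 in ecig mouse 2, 0.056 in ecig mouse 3 and -0.413 in ecig mouse 4. Ecig mice 1 and 3 thus lay within the sham range, and ecig mice 2 and 4 lay below every sham mouse. The group means were -0.158 ± 0.232 (SD, n = 4) in ecig and 0.0 ± 0.058 (SD, n = 4) in sham mice, where the sham mean is 0 by construction. Without ecig mice 2 and 4 the difference between groups was 0.038. The subunits were chosen with earlier results of these arrays known, so no p is given for their mean.

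Of the 8 assembly factors, 5 had lower means, against 33 of the 38 subunits, with median differences of -0.071 and -0.160. Without ecig mice 2 and 4 these were 3 of 8 and 12 of 38, with medians of 0.090 and 0.042. The mean deviation of the assembly factors was -0.034, 0.080, 0.003 and -0.049 in sham mice 1 to 4, and 0.064, -0.190, -0.035 and -0.348 in ecig mice 1 to 4. The group difference was -0.127, with an SD of 0.180 among ecig mice, and 0.014 without ecig mice 2 and 4. Subtracting the assembly factor mean from the subunit mean in each mouse gave 0.046, -0.080, 0.061 and -0.027 in sham mice and -0.044, -0.106, 0.091 and -0.065 in ecig mice. These contrasts overlapped between the groups and differed by -0.031 on average, which is less than the SD among ecig mice (0.085). The contrast depended on single mice. With 1 mouse left out it ran from -0.071 (without ecig mouse 3, with an SD of 0.031) to -0.006 (without ecig mouse 2). Without ecig mice 2 and 4 it was 0.024. The subunits and the Ndufaf genes were therefore not told apart by exposure with this number of mice, which does not show that they behave alike.

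**Figure D2:**
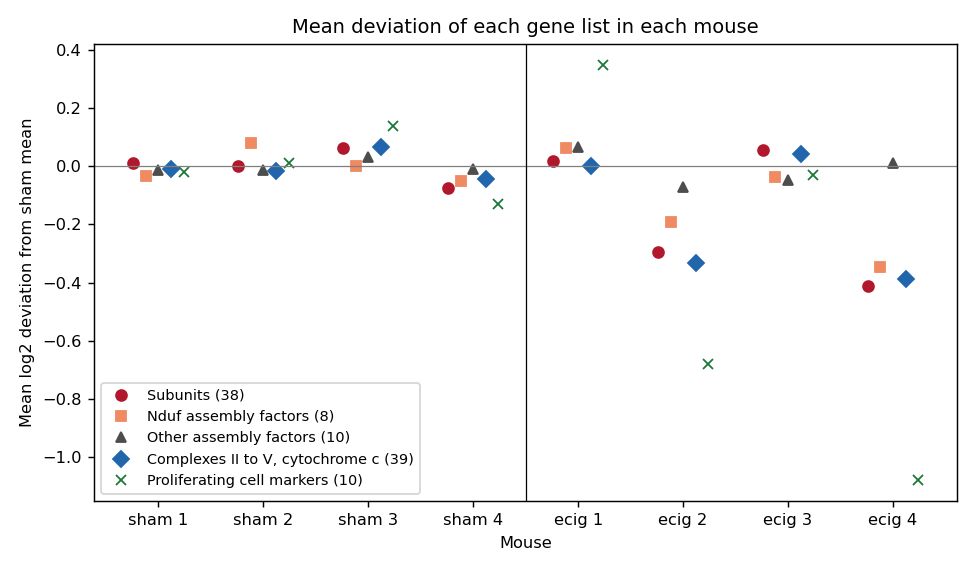
Each point is the mean log2 deviation from the sham mean of 1 gene list in 1 mouse, with the mice along the horizontal axis. Subunits, Nduf assembly factors and the genes of complexes II to V are low in ecig mice 2 and 4, proliferating cell markers are lowest in the same mice, and the 10 other assembly factors lie between -0.070 and 0.068 in all 8 mice.

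Gene by gene, ecig mouse 4 held the lowest value of the 8 mice at 36 of 46 Nduf genes (78.3%), against 20.2% of all probe sets. Ecig mouse 2 was lowest at 5 Nduf genes (10.9%, against 13.1% of the array) and ecig mouse 1 at 3 (6.52%, against 14.2%). Ecig mouse 3 was lowest at 1 (2.17%, against 10.7%) and sham mouse 4 at 1 (2.17%, against 9.63%). Sham mice 1 to 3 were lowest at 0, against 9.32%, 11.5% and 11.3% of the array. Values under the lowest sham mouse were found at 41 genes in ecig mouse 4 and at 35 in ecig mouse 2, against 28.2% and 25.2% of all probe sets. The same was true of 9 genes in ecig mouse 1 and 6 in ecig mouse 3, or 19.6% and 13.0% of the Nduf genes, against 21.8% and 21.2% of the array. At 25 Nduf genes (54.3%, and 7.66% of the array) ecig mice 2 and 4, and neither of the other ecig mice, lay under all sham mice. The spread within groups shows the same split, with a median SD of 0.0975 in sham and 0.238 in ecig mice over the Nduf genes, and 0.134 and 0.176 over all probe sets.

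**Figure D3:**
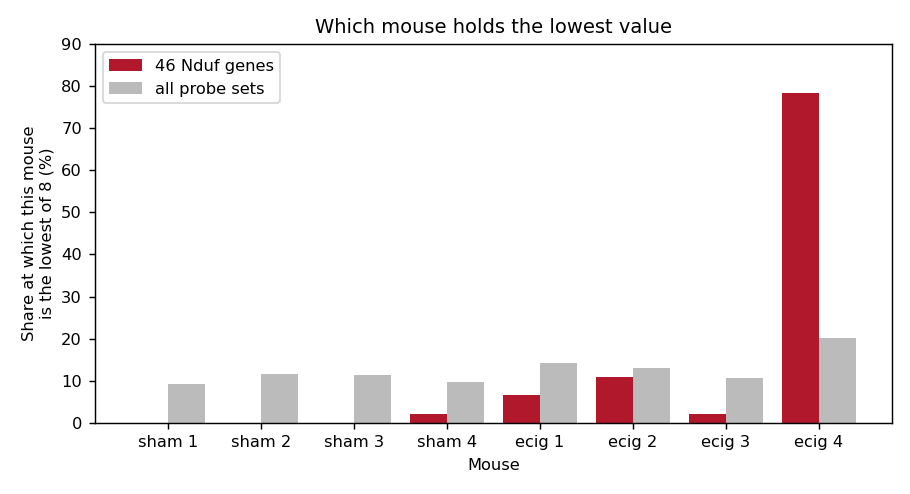
Bars give the share, in percent, of the 46 Nduf genes and of all 22206 probe sets at which each mouse on the horizontal axis held the lowest of the 8 values. Ecig mouse 4 held it at 78.3% of Nduf genes and 20.2% of the array.

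**Figure D4:**
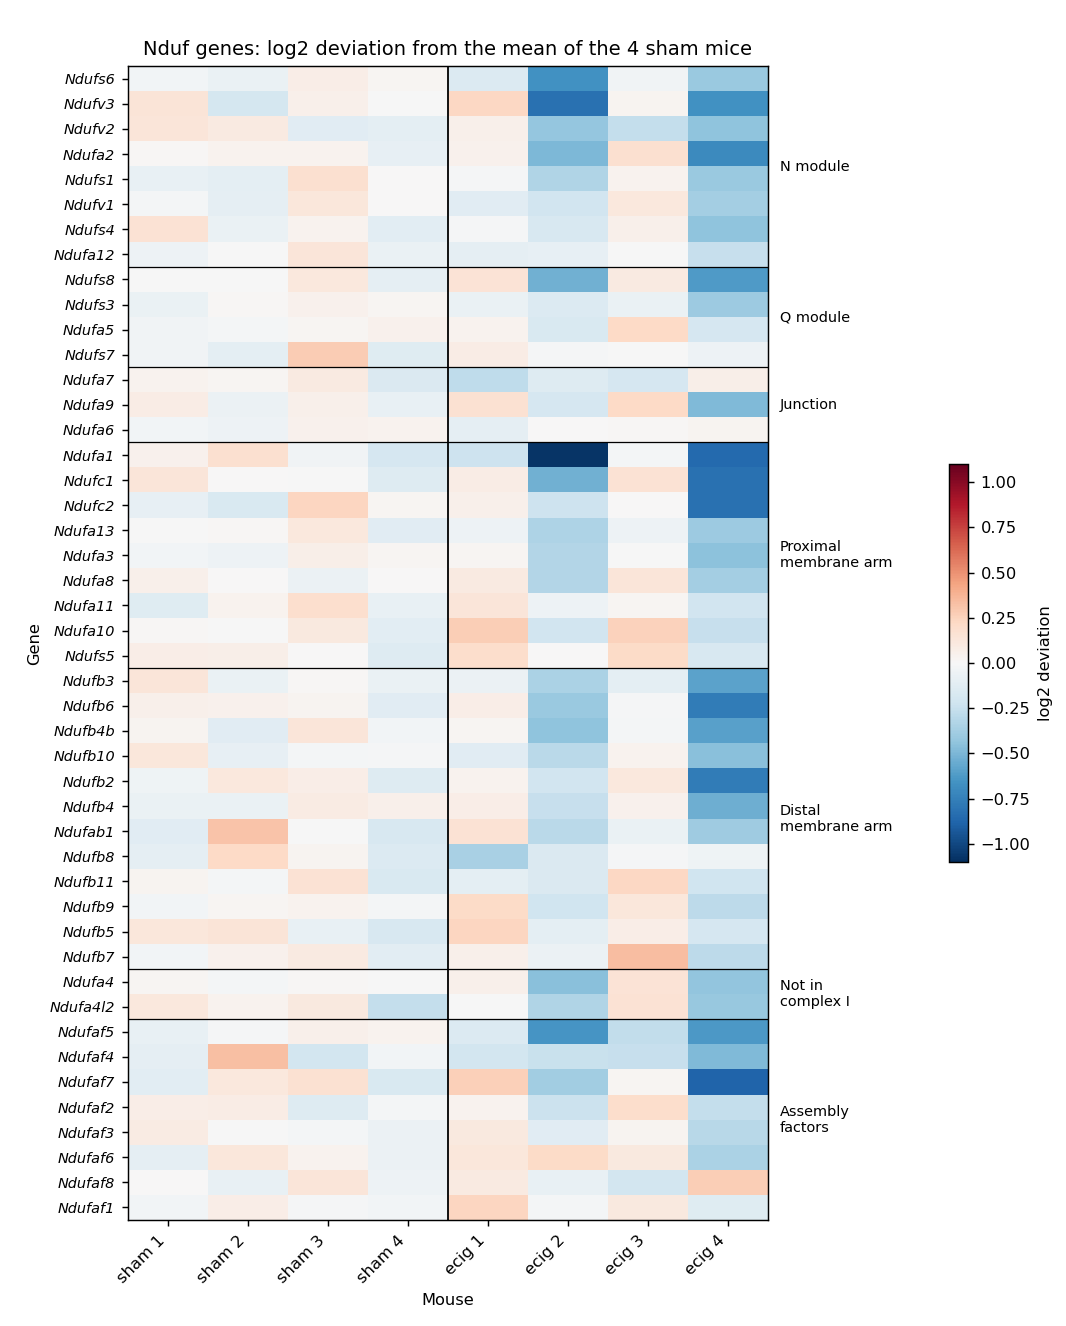
Rows are the 46 Nduf genes by their place in the complex, columns are the 8 mice, and colour is the log2 deviation from the mean of the 4 sham mice. The columns of ecig mice 2 and 4 are blue (low) at 43 of 46 genes each, and those of ecig mice 1 and 3 at 17 each. Among sham mice the count is 35 in sham mouse 4, 24 and 23 in sham mice 1 and 2, and 11 in sham mouse 3.

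In the N module, all 8 measured genes had lower means, with a median difference of -0.209 (4 of 8 and 0.006 without ecig mice 2 and 4). Ndufs6, a zinc-binding accessory subunit, was 9.22, 9.17, 9.31 and 9.27 in sham mice 1 to 4 and 9.09, 8.58, 9.21 and 8.83 in ecig mice 1 to 4. Its sham values lay close together, and ecig mouse 3 was the ecig mouse that overlapped them. The difference was -0.31 ± 0.13 (SE, 1.24-fold lower, unadjusted p = 0.0392 and adjusted p = 0.838 in limma), and -0.09 ± 0.10 without ecig mice 2 and 4. Ndufv2, a core subunit with an iron-sulphur cluster, was 9.40, 9.37, 9.15 and 9.16 in sham and 9.33, 8.85, 9.01 and 8.83 in ecig mice. Here ecig mouse 1 was the ecig mouse within the sham range, and the difference was -0.27 ± 0.13 (SE, unadjusted p = 0.0588 in limma), and -0.10 ± 0.13 without ecig mice 2 and 4.

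Ndufv1, which binds NADH and flavin, was 9.97, 9.89, 10.11 and 9.99 in sham and 9.87, 9.78, 10.10 and 9.61 in ecig mice. Ndufs1, the iron-sulphur core subunit next to it, was 8.55, 8.53, 8.81 and 8.64 in sham and 8.62, 8.30, 8.68 and 8.22 in ecig mice. Both overlapped between groups, with differences of -0.15 ± 0.11 and -0.18 ± 0.12 (SE). Ndufs4, an accessory subunit whose loss in mice gives a disease like Leigh syndrome, was 9.05, 8.82, 8.93 and 8.77 in sham and 8.87, 8.71, 8.94 and 8.45 in ecig mice (-0.14 ± 0.12, SE). The other 3 genes of this module, Ndufv3, Ndufa2 and Ndufa12, differed by -0.31, -0.24 and -0.11. Ndufv3 ranged from 6.11 in ecig mouse 2 to 7.16 in ecig mouse 1, so that the ecig group held both its lowest and its highest value.

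Of the 4 measured Q module genes, 3 had lower means, with a median difference of -0.100 (1 of 4 and 0.082 without ecig mice 2 and 4). Ndufs8, an iron-sulphur core subunit, was 9.11, 9.11, 9.23 and 9.01 in sham and 9.27, 8.59, 9.21 and 8.50 in ecig mice. Its ecig values formed a high and a low pair, and the difference was -0.22 ± 0.18 (SE). Ndufs3, a core subunit without a cluster, was 9.85, 9.94, 9.97 and 9.95 in sham and 9.85, 9.77, 9.86 and 9.53 in ecig mice (-0.18 ± 0.10, SE). Ndufs7, which carries the last cluster before ubiquinone, did not share the pattern. It was 8.39, 8.32, 8.70 and 8.30 in sham and 8.51, 8.42, 8.43 and 8.37 in ecig mice, and was the Nduf gene at which no ecig mouse lay under the lowest sham mouse. Its difference was 0.0 with a 95% interval of -0.23 to 0.24, and that of Ndufa5, an accessory subunit of the same module, was -0.02 ± 0.11 (SE).

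All 3 accessory subunits at the junction of the arms had lower means, with a median difference of -0.073 (2 of 3 and -0.044 without ecig mice 2 and 4). Ndufa6, which holds an acyl carrier protein on the arm, had the smallest SD over the 8 mice of all subunits (0.051). Its values were 8.45, 8.42, 8.52 and 8.51 in sham and 8.38, 8.48, 8.49 and 8.51 in ecig mice, so ecig mice 2 and 4 lay within the sham range. The difference was -0.01, with a 95% interval of -0.19 to 0.16. Ndufa7 was 8.01, 8.0, 8.08 and 7.82 in sham and 7.70, 7.83, 7.79 and 8.04 in ecig mice. Here ecig mice 1 and 3 lay under all sham mice and ecig mouse 4 did not, the reverse of the common order, and the difference was -0.14 ± 0.10 (SE). Ndufa9, a dehydrogenase-like subunit, was 8.62, 8.48, 8.59 and 8.46 in sham and 8.70, 8.35, 8.76 and 8.05 in ecig mice. Ecig mice 1 and 3 lay above and ecig mice 2 and 4 below all sham mice (-0.07 ± 0.15, SE).

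In the proximal membrane arm, 7 of 9 genes had lower means, with a median difference of -0.188 (2 of 9 and 0.079 without ecig mice 2 and 4). The set held the extremes of the family. Ndufa1, a small membrane subunit encoded on the X chromosome, was 7.89, 8.02, 7.81 and 7.66 in sham and 7.62, 6.77, 7.83 and 6.99 in ecig mice. Ecig mouse 3 lay inside the sham range, ecig mouse 1 just under it, and ecig mice 2 and 4 far under it. The difference was -0.55 ± 0.22 (SE, 1.46-fold lower, unadjusted p = 0.0296 and adjusted p = 0.838 in limma), and -0.12 ± 0.13 without ecig mice 2 and 4. Ndufa1 also had the largest SD over the 8 mice of all subunits (0.451). Ndufa13, also known as GRIM-19, was 9.87, 9.88, 9.98 and 9.74 in sham and 9.81, 9.53, 9.81 and 9.47 in ecig mice (-0.21 ± 0.11, SE). Ndufc1 and Ndufc2, membrane subunits, were lowest in ecig mouse 4 at 8.95 and 10.15, where their sham values began at 9.63 and 10.80. The means of Ndufs5 and Ndufa10 were 0.06 and 0.01 higher in ecig mice, although both were lowest in ecig mouse 4 (7.87 and 8.90).

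Of 12 measured distal membrane arm genes, 10 had lower means, with a median difference of -0.159 (3 of 12 and 0.051 without ecig mice 2 and 4). Ndufb3 was 8.05, 7.84, 7.93 and 7.84 in sham and 7.85, 7.57, 7.80 and 7.32 in ecig mice. Ecig mouse 1 lay within the sham range and the other 3 below it, and the difference was -0.28 ± 0.12 (SE, unadjusted p = 0.0487 and adjusted p = 0.838 in limma), and -0.09 ± 0.10 without ecig mice 2 and 4. Ndufb10 was 7.44, 7.22, 7.29 and 7.30 in sham and 7.19, 7.02, 7.34 and 6.85 in ecig mice (-0.21 ± 0.12, SE). Ndufb8 did not follow ecig mouse 4. It was 8.02, 8.34, 8.15 and 7.97 in sham and 7.76, 7.96, 8.10 and 8.07 in ecig mice, with ecig mouse 1 lowest and a difference of -0.15 ± 0.11 (SE). Ndufab1, the mitochondrial acyl carrier protein, which also serves fatty acid synthesis, was 8.69, 9.13, 8.81 and 8.64 in sham and 8.97, 8.51, 8.74 and 8.43 in ecig mice (-0.15 ± 0.15, SE). Ndufb4 and its mouse copy Ndufb4b, whose probes may share targets, differed by -0.17 and -0.26 and were both lowest in ecig mouse 4. The other 6 genes ran from -0.28 for Ndufb6 to 0.01 for Ndufb7.

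**Figure D5:**
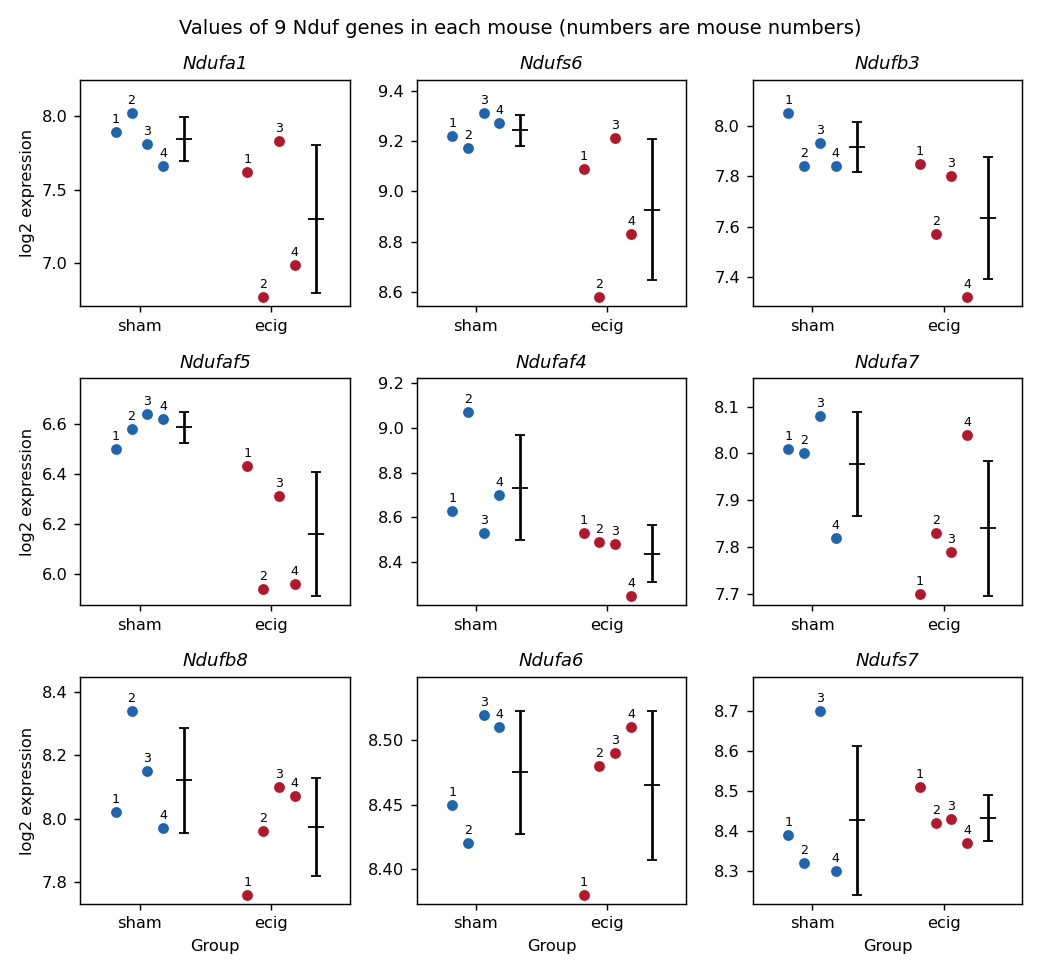
Log2 expression of 9 Nduf genes by group, with 1 point for each mouse, its number above it, and the group mean ± SD beside the points. Ndufa1, Ndufs6 and Ndufb3 show ecig mice 2 and 4 under all sham mice, Ndufaf5 shows all 4 ecig mice under all sham mice, and at Ndufa7, Ndufb8, Ndufa6 and Ndufs7 ecig mouse 4 lies within the sham range.

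Ndufa4 and Ndufa4l2 carry the Nduf name without being subunits of the complex. Ndufa4 belongs to cytochrome c oxidase, and was 10.63, 10.59, 10.63 and 10.61 in sham and 10.67, 10.15, 10.76 and 10.18 in ecig mice. Ndufa4l2, a related gene induced in low oxygen, was 7.68, 7.6, 7.67 and 7.30 in sham and 7.56, 7.23, 7.72 and 7.14 in ecig mice. Both had the split into ecig mice 1 and 3 within or above the sham range and 2 and 4 below it, with differences of -0.18 ± 0.14 and -0.15 ± 0.15 (SE). Leaving both out changed the subunit mean difference by less than its last printed digit (-0.158).

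Among the assembly factors, Ndufaf5 was the Nduf gene with the smallest p and the one at which all 4 ecig mice lay under all 4 sham mice, as at 1.35% of the array. All ecig mice lay above all sham mice at 0 Nduf genes and at 1.38% of the array. Ndufaf5 hydroxylates an arginine of Ndufs7 early in assembly. Its values were 6.50, 6.58, 6.64 and 6.62 in sham and 6.43, 5.94, 6.31 and 5.96 in ecig mice. Ecig mouse 1 lay just under the lowest sham mouse, and the other 3 lay further down. The difference was -0.43 ± 0.12 (SE, 95% interval -0.70 to -0.15, 1.34-fold lower, unadjusted p = 0.00617 and adjusted p = 0.838 in limma). Leaving out each mouse in turn gave differences of -0.52 to -0.35 with unadjusted p of 0.00135 to 0.0193 in limma. These 8 fits share most of their mice, and Ndufaf5 already had the smallest p of the family. The share of the array with such a p in all 8 fits was not counted, so they do not set Ndufaf5 apart. Without ecig mice 2 and 4 the difference was -0.21 ± 0.10 (SE, unadjusted p = 0.0573 in limma).

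Ndufaf8, which stabilises the Ndufaf5 protein, was 6.80, 6.72, 6.93 and 6.74 in sham and 6.89, 6.72, 6.59 and 7.06 in ecig mice. It was highest in ecig mouse 4, unlike Ndufaf5, and the groups overlapped (0.02 ± 0.11, SE). Ndufaf4, which binds the Q module with Ndufaf3, was 8.63, 9.07, 8.53 and 8.70 in sham and 8.53, 8.49, 8.48 and 8.25 in ecig mice. Its ecig values lay close together, with sham mouse 2 standing high, and the difference was -0.30 ± 0.13 (SE, 1.23-fold lower, unadjusted p = 0.0413 and adjusted p = 0.838 in limma). Without ecig mice 2 and 4 it was -0.23 ± 0.15, and without sham mouse 2 it was -0.18. Ndufaf3 was 6.97, 6.88, 6.86 and 6.82 in sham and 6.98, 6.76, 6.91 and 6.57 in ecig mice (-0.07 ± 0.10, SE).

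Ndufaf7, a methyltransferase of a core subunit, was 7.55, 7.78, 7.83 and 7.49 in sham and 7.92, 7.28, 7.68 and 6.78 in ecig mice. Ecig mouse 4 lay far below the rest and ecig mouse 1 above all sham mice, and the difference was -0.25 ± 0.22 (SE). Ndufaf2, which acts late and resembles Ndufa12, was 7.56, 7.57, 7.35 and 7.47 in sham and 7.53, 7.25, 7.68 and 7.23 in ecig mice (-0.07 ± 0.12, SE). Ndufaf1, part of the complex that assembles the membrane arm, was 7.59, 7.70, 7.61 and 7.6 in sham and 7.86, 7.61, 7.73 and 7.49 in ecig mice (0.05 ± 0.10, SE). Ndufaf6 was 7.08, 7.31, 7.22 and 7.12 in sham and 7.31, 7.39, 7.29 and 6.83 in ecig mice (0.02 ± 0.13, SE). These last 3 genes overlapped between groups, and at Ndufaf6 ecig mouse 2 held the highest value of the 8 mice.

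Of 10 measured assembly factors not named Nduf, 3 had lower and 7 higher means, with a median difference of 0.011. In limma 0 of them had an unadjusted p under 0.05, against 5.42% of the array in either direction. Among 10 genes a count of 0 is near that share. The median difference of this list was 0.002 without ecig mice 2 and 4, with 5 lower and 5 higher. Their mean deviation was -0.070 in ecig mouse 2 and 0.011 in ecig mouse 4, the mice in which the Ndufaf genes lay at -0.190 and -0.348. The smallest p-values of this list belonged to Tmem70, also an assembly factor of ATP synthase, at 7.01, 6.98, 6.96 and 6.86 in sham and 6.98, 6.79, 6.84 and 6.53 in ecig mice, and to Ecsit, at 7.15, 7.33, 7.38 and 7.55 in sham and 7.44, 6.97, 7.33 and 7.26 in ecig mice. Both overlapped between groups. The difference between this list and the Ndufaf genes was not tested.

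Genes of the remaining complexes of the chain were low in the same mice. Of 39 genes of complexes II to V with cytochrome c, 37 had lower means, with a median difference of -0.149, close to that of the Nduf genes. Their mean deviation was 0.001, -0.331, 0.042 and -0.387 in ecig mice 1 to 4, and without ecig mice 2 and 4 their median difference was 0.036. At an unadjusted p under 0.05, limma placed 1 of the 39 as lower, a share near the 2.5% of the array. This was Cycs (cytochrome c), at 10.37, 10.56, 10.27 and 10.17 in sham and 10.18, 9.64, 9.97 and 9.68 in ecig mice (adjusted p = 0.838). Uqcrb, a subunit of complex III, was 11.56, 11.54, 11.58 and 11.61 in sham and 11.48, 11.31, 11.48 and 11.35 in ecig mice, without overlap (unadjusted p = 0.0627 in limma). All ecig mice lay under all sham mice at 1 of the 39 genes and at 1.35% of the array. In complex IV, Cox5a was 8.70, 8.87, 9.06 and 8.82 in sham and 8.83, 8.14, 8.92 and 8.19 in ecig mice, and Cox5b was 10.05, 9.93, 10.17 and 10.02 in sham and 10.03, 9.72, 10.08 and 9.71 in ecig mice. Both had the order of the Nduf genes, with ecig mice 1 and 3 inside the sham range. In complex V, Atp5e was 7.58, 7.55, 7.48 and 7.43 in sham and 7.25, 7.30, 7.55 and 6.73 in ecig mice, and Atp5k was 7.30, 7.22, 7.51 and 7.12 in sham and 7.24, 6.80, 7.27 and 6.45 in ecig mice. Atp5e was low in ecig mouse 1 as well. The shift was thus not shown to be particular to complex I.

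Of the lists of cell state and cell type markers, those of proliferating cells, skeletal muscle and stroma lay below all sham mice in both ecig mouse 2 and ecig mouse 4. For the stromal list the margin in ecig mouse 4 was small (-0.17, against -0.14 in sham mouse 4). The stromal members did not move together in ecig mice 2 and 4. Col1a1 (9.95 and 10.97) and Col3a1 (11.08 and 11.69) lay below all sham mice there, and Dcn (13.07 and 12.96) lay above them all. Vim (11.24 and 11.91) was below the sham range in neither mouse, and Lum (10.89 and 10.30) only in ecig mouse 4. The other lists did not lie below all sham mice in both. All 10 measured proliferating cell markers had lower ecig means, and their list mean ran from 7.83 to 8.10 in sham and from 6.88 to 8.31 in ecig mice. Relative to sham it was 0.35, -0.68, -0.03 and -1.08 in ecig mice 1 to 4. Of 5 skeletal muscle markers, 3 had lower means, and the list lay at 0.04, -0.56, -0.23 and -0.61 (list mean 6.68 to 6.82 in sham and 6.15 to 6.80 in ecig mice). Its members did not move together, with differences of -1.14 for Acta1, -0.56 for Tnnt3, -0.12 for Mylpf, 0.03 for Myh4 and 0.07 for Ckm. Ckm was 8.48 and 8.53 in ecig mice 2 and 4, above the sham range of 8.21 to 8.33. All 8 smooth muscle markers had lower ecig means, at 0.02, -0.61, 0.01 and -0.21 (11.01 to 11.44 and 10.70 to 11.33), where sham mouse 4 lay at -0.30. Stromal markers, with 2 of 5 lower, lay at 0.05, -0.49, 0.09 and -0.17 (11.59 to 11.84 and 11.25 to 11.82), and sham mouse 4 at -0.14. These 2 lists were thus well under the sham range in ecig mouse 2, with ecig mouse 4 inside it or just under it. Epithelial markers, with 5 of 7 lower, had another order, at -0.18, -0.06, -0.17 and -0.61 (8.80 to 9.19 and 8.35 to 8.90). Ecig mouse 4 lay below all sham mice, and ecig mice 1 and 3 only just under the lowest (-0.16). In ecig mouse 4, Krt8, Krt19, Cdh1, Foxa2 and Cldn7 lay below all sham mice, Epcam (8.90) within their range and Krt18 (9.18) above them all. Krt19 lay furthest down, at 6.93 against 8.07 to 9.41 in sham mice. Macrophage markers, with 3 of 5 lower, lay at 0.18, -0.46, -0.05 and 0.0 (7.39 to 7.6 and 7.01 to 7.66). Adipocyte markers, with 6 of 7 higher, lay at 1.00, 1.29, -0.17 and 0.08 (5.49 to 5.93 and 5.48 to 6.94), with their high values in ecig mice 1 and 2. The part of these markers in the Nduf values was not tested, and in whole uterus fewer cells of a type and less RNA per cell cannot be told apart.

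Promoter sequences were available for 41 of the 46 genes, as windows of 300 bases (250 before the gene's start and 50 after) from RefSeq on build GRCm38.p6. They were searched on both strands for motifs of factors known to act on genes of mitochondrial proteins. Some genes, such as Ndufa5 and Ndufa7, have more than 1 window, and a gene was counted if any of its windows held the motif. The NRF1 motif (GCGCA, any base, GCGC) was found in 9 of 41 genes (22.0%) and in 5.19% of all 27025 genes. The YY1 core AAGATGG was found in 8 (19.5%, and 7.28% of all genes), the ETS core CCGGAAG, bound by GABPA, in 6 (14.6% and 9.93%), and the ERR core AAGGTCA in 3 (7.32% and 5.38%). None of these motifs contains another, and 19 of the 41 genes held none of the 4. A match is a run of letters and not a measured site. Differences between groups spanned -0.43 to 0.06 for the genes with an NRF1 match and -0.55 to 0.05 for those without.

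The 250 bases before the start are shown, 5′ to 3′ on the gene's strand with matches in capitals, for 5 genes. Ndufa1 had the lowest difference and no match, Ndufs6 and Ndufaf4 are genes of unadjusted p under 0.05 with an NRF1 match upstream of the start, Ndufb4 held 3 NRF1 matches, and Ndufs5 had the highest difference and also holds a match.
Ndufa1, chrX:37191239-37191488, minus strand: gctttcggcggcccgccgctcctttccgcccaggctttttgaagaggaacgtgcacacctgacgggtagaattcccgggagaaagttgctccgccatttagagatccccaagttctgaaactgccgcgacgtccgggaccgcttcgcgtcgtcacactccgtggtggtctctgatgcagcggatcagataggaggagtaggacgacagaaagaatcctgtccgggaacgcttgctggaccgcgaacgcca
Ndufs6, chr13:73328483-73328732, minus strand: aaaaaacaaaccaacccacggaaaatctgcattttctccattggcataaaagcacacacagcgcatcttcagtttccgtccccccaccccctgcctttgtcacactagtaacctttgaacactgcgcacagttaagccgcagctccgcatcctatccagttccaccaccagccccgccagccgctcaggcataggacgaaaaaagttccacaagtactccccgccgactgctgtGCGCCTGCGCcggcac
Ndufaf4, chr4:24897833-24898082, plus strand: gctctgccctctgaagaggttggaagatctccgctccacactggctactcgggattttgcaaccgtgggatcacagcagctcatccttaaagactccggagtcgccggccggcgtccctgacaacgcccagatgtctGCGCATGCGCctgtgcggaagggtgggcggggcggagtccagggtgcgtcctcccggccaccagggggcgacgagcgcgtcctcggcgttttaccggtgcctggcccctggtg
Ndufb4, chr16:37654369-37654618, minus strand: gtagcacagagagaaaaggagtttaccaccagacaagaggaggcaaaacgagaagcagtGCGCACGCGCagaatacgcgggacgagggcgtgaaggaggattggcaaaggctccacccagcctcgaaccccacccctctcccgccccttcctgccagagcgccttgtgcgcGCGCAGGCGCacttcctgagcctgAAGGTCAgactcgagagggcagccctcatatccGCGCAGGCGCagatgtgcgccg
Ndufs5, chr4:123718187-123718436, minus strand: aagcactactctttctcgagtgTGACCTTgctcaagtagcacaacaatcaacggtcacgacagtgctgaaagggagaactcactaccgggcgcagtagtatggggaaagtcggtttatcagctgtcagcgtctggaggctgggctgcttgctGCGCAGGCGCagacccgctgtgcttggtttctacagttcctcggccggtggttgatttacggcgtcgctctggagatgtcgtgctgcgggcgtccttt
In Ndufs6 the NRF1 match begins 16 bases before the start, and in Ndufaf4 113 bases before it. In Ndufb4 the NRF1 matches begin 191, 79 and 22 bases before the start and the ERR match 55 bases before it. In Ndufs5 the ERR match, on the opposite strand, begins 228 bases and the NRF1 match 98 bases before the start. Ndufaf5 holds its NRF1 match 16 bases after the start, outside the part shown. Ndufaf5 and Ndufs5, which both hold the NRF1 motif, had differences of -0.43 and 0.06.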

How the data were processed

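The values used are the authors' own log2 expression, deposited as a single table of 22206 probe sets by 8 arrays. That they are log2 was judged from their spread, 2.75 to 13.6. The submitters' processing notes name Partek, and no label or header used here states the background correction, summarisation, build or batch. Sorted within each array, the values differ between arrays by 0.0198 or less. The columns thus share 1 distribution, which sets a change common to all genes to 0, and they were not scaled again. Signal over background was not assessed, and precision is limited by having 4 arrays in a group.

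Symbols came from the platform annotation (19572 probe sets with 1 symbol, 0 with several, 2634 with none). All 46 Nduf symbols equal those of RefSeq on GRCm38.p6. Differences were fitted over all probe sets with limma 3.58.1 (lmFit, eBayes) in R 4.3.3 without covariates, two-sided, with Benjamini-Hochberg adjustment and a threshold of 0.05, and the script was tested on simulated data. Means over gene lists have no test.

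The members, lists, roles and alternatives were chosen with earlier results of these data known. Ndufb4b was put in the distal membrane arm after the annotation was seen. Given for each mouse were the core subunits, the assembly factors, Ndufa1, Ndufs4, Ndufab1, Ndufa4, Ndufa4l2, the 2 genes of smallest p in each part of the complex and in each other pathway list, and the subunits of smallest and largest SD. Ndufb8, Ppargc1a and the genes given in part were picked with their values in view. Alternatives were other scalings (quantile, median), removal of dim probe sets below the 25th or the 50th percentile, a trend, array weights, a replicate block, and leaving out mice or genes.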

Additional observations from a re-analysis of the deposited data

Results flagged for a closer look

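By Dixon's test at the 95% level, 2 of 98 groups of 4 values (the Nduf genes and the list means) held 1 mouse far from the other 3, where chance gives about 1 in 20. Both are sham values. Ndufb6 was 8.46 in sham mouse 4, with the other sham mice at 8.62 to 8.64. Ndufaf1 was 7.70 in sham mouse 2, with the others at 7.59 to 7.61. The low ecig values of mice 2 and 4 are not marked by this test, since a pair of low values leaves no single mouse apart.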

How the results depend on the processing

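Quantile normalization and median centring changed none of the counts and list means. The columns already share 1 distribution, so this outcome was fixed in advance and does not test the processing. In limma, 0 Nduf genes passed an adjusted p of 0.05 in any of the fits. The values rest on ecig mice 2 and 4. Leaving both out gave list mean differences of 0.038 for subunits, 0.014 for assembly factors and 0.024 for their contrast, 15 lower means, and 2 genes (Ndufaf5 and Ndufa7) with all ecig below all sham mice and 8 above, against 6.77% and 5.44% of the array. The number lower at an unadjusted p under 0.05 was then 0 and higher 1 (1.96% and 2.02% of the array). The number lower was 3 with array weights, against 2.47% of the array. With the 25th and the 50th percentile filter it was 4, against 2.76% and 3.48%, and the latter left 42 Nduf genes. When 1 mouse was left out it was 1 to 10 (10 without ecig mouse 1, where the array share was 6.03%, 8 without ecig mouse 3 at 3.4%, 2 without sham mouse 1, 3 or 4, and 1 without sham mouse 2, ecig mouse 2 or ecig mouse 4, the last 6 at 1.44% to 2.39%). With 1 mouse left out, 1 to 6 genes had all ecig below all sham mice (6 without ecig mouse 3, where the array share was 3.06%, over a range of 2.24% to 5.12%), and ecig mouse 2 was lowest at 5 to 32 genes (32 without ecig mouse 4, where the array share was 20.7%). The subunit mean difference ran from -0.23 to -0.073 and that of the assembly factors from -0.191 to -0.054, and their contrast from -0.071 to -0.006. The replicate block gave 6 genes lower at an unadjusted p under 0.05, against 2.72% of the array. Deviations of same-numbered mice correlated at 0.08, -0.238, 0.085 and 0.075. Each correlation rests on 1 mouse of each group, so they cannot decide whether same-numbered mice shared a batch. As the labels state no batch, the numbers were used only as names of mice. Each gene has 1 probe set, so averaging probe sets changes nothing. Without signal over background, how far dim genes are compressed is not known.

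Genes that changed sign included some of the larger differences, such as Ndufv3 (-0.31), Ndufc1 and Ndufb6 (-0.28). Without ecig mice 2 and 4 the log2 differences were Ndufa11 0.079, Ndufa2 0.113, Ndufa3 0.01, Ndufa4 0.1, Ndufa4l2 0.076, Ndufa5 0.131, Ndufa8 0.115, Ndufa9 0.193, Ndufab1 0.045, Ndufaf2 0.116, Ndufaf3 0.067, Ndufaf7 0.141, Ndufaf8 -0.055, Ndufb11 0.057, Ndufb2 0.075, Ndufb4 0.059, Ndufb6 0.032, Ndufb9 0.167, Ndufc1 0.121, Ndufc2 0.03, Ndufs1 0.016, Ndufs4 0.02, Ndufs8 0.124 and Ndufv3 0.127. With array weights they were Ndufa11 0.005, Ndufa5 0.026 and Ndufaf8 -0.03. Leaving out 1 mouse at a time gave ranges of -0.07 to 0.103 for Ndufa10, -0.081 to 0.034 for Ndufa11, -0.106 to 0.03 for Ndufa5, -0.031 to 0.016 for Ndufa6, -0.17 to 0.066 for Ndufa9, -0.015 to 0.109 for Ndufaf1, -0.134 to 0.003 for Ndufaf3, -0.041 to 0.144 for Ndufaf6, -0.064 to 0.094 for Ndufaf8, -0.073 to 0.067 for Ndufb5, -0.095 to 0.113 for Ndufb7, -0.126 to 0.04 for Ndufb9 and -0.04 to 0.095 for Ndufs7. None of these has an adjusted p under 0.05, and the cause was not tested.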

Other observations

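Of 12 measured regulators of mitochondrial gene expression, 6 had lower and 6 higher means, with a median difference of 0.009. Of these, 8 were lower and 4 higher without ecig mice 2 and 4, with a median of -0.024. Their list mean was 0.135 above sham in ecig mouse 2 and -0.067 relative to sham in ecig mouse 4, the mice in which the Nduf genes were low. The value in ecig mouse 2 rests largely on Ppargc1a, which had the highest difference of the list (0.40). Ppargc1a was 7.34, 7.27, 7.55 and 8.66 in sham and 7.76, 8.96, 7.51 and 8.18 in ecig mice. Tfb1m, a mitochondrial methyltransferase of ribosomal RNA, was 7.41, 7.0, 7.62 and 6.97 in sham and 7.64, 7.68, 7.49 and 7.51 in ecig mice (1.26-fold higher, unadjusted p = 0.048 and adjusted p = 0.838 in limma). Its ecig values lay close together and its sham values fell into 2 pairs. Pprc1, a coactivator of the PGC-1 family, was 6.53, 6.67, 6.52 and 6.14 in sham and 6.55, 6.19, 6.32 and 5.55 in ecig mice, lowest in ecig mouse 4 (1.24-fold lower, unadjusted p = 0.148 in limma).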
